A study of Mus musculus with 7 samples.

Results

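Cytosolic ribosomal protein genes were described in 3 libraries of mouse embryonic stem cells (mESCs) and 4 libraries of mouse embryonic fibroblasts (MEFs). The members were the rows of the gene count table whose symbol was Rpl or Rps followed by a number, with the suffixes a, x, y or l allowed, together with Rpsa, Rplp0, Rplp1 and Rplp2. Rows named as pseudogenes (-ps) and the S6 kinase genes were left out. This rule gave 90 of 55484 rows, of which 54 carry large-subunit and 36 carry small-subunit names. GENCODE M21 annotates 84 of them as protein coding and 6 as pseudogenes, which are Rps4l, Rps12l1, Rpl32l, Rpl6l, Rps3a2 and Rps3a3. The members lie on 19 chromosomes, with 15 on chromosome 7 and 4 on the X chromosome. Both cell types had a C57/Bl6 background, and no treatment, age or sex is given for either. The labels do not say whether the libraries came from separate cultures. The study calls its RNA samples biological replicates and gives a number of them that matches the mESC libraries but not the MEF libraries, so the p-values below measure only the spread between these libraries. The sample labels describe RNA isolation from blood stem cells rather than from these cells, and the study's methods state sorting of Thy1+ MEFs and of Thy1-/Ssea1+/Epcam+ mESCs only for its chromatin assay.

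The ribosome is built from a large 60S and a small 40S subunit, in which ribosomal proteins fold around ribosomal RNA. Most mammalian ribosomal proteins come from 1 parent gene that contains introns, and reverse transcription of its abundant mRNA has scattered many intronless copies through the genome. Their mRNAs belong to the 5′ terminal oligopyrimidine (TOP) class, whose translation is controlled through mTORC1 and the RNA-binding protein Larp1. A few members have a second expressed gene, such as Rpl10l and Rpl39l, which are best known from the testis, where they stand in for a partner on the X chromosome.

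The libraries held between 6528643 and 11441278 counts. They are named here by letter in descending order of total counts, as MEF a to d (11441278, 9176467, 7312679 and 6528643 counts) and mESC a to c (8193825, 8057985 and 7462710 counts), and values are given in that order. Counts came from 3′-biased libraries in which molecular identifiers had been collapsed. Levels are counts per 1000000 counts of the library (CPM) after scaling by TMM (the trimmed mean of M values, edgeR's library scaling), unless raw library totals are named. Of 10 pluripotency markers 9 could be tested and all 9 were higher in mESCs, with Sox2 at 2.53 CPM on average in MEFs and 547 CPM in mESCs, and all 10 fibroblast markers were lower, with Col1a1 at 12538 and 59.4 CPM. Summed markers of blood cells (6 genes) ran from 3.97 to 22.3 CPM in MEFs and from 62.4 to 71.0 CPM in mESCs on raw library totals. Of the 5 blood markers tested, however, 1 was higher and 2 were lower in mESCs (median log2 fold change -1.51). Among all genes tested 22.8% were higher and 25.0% lower. In mESCs Laptm5 alone held 58.4 TMM-scaled CPM, while Ptprc, the defining marker, did not exceed 1 count in any mESC library. Of 4 endothelial markers 3 were tested, of which 1 was higher and 0 were lower in mESCs (median log2 fold change -0.39). The higher one was Pecam1 (29.9 against 2.79 CPM), and Cdh5 reached at most 3 counts in an mESC library. The part of other cells in the results below was not tested.

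Some sequences show what the count table had to tell apart. The last 60 coding bases, stop codon included, are given for members with a second gene or copy, since libraries primed at the poly(A) tail read mostly near the end of the mRNA. They were taken from GENCODE M21 transcripts (GRCm38), and capitals mark bases that differ from the main gene on the line above. Rpl10 (chrX:74270812-74273135, plus strand) and Rpl10l (chr12:66283379-66284401, minus strand) shared 84.8% of 645 coding bases. Rpl39 (chrX:37082520-37085402, minus strand) and Rpl39l (chr16:10170226-10174911, plus strand) shared 85.3% of 156. Rps6 (chr4:86854660-86857412, minus strand) and the processed pseudogene Rps6-ps4 (chr2:75191073-75191822, minus strand) were identical over all 750 coding bases.
Rpl10: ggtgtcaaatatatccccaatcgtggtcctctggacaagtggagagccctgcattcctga
Rpl10l: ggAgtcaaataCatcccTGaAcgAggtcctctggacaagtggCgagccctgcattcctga
Rpl39: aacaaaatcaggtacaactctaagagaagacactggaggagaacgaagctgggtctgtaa
Rpl39l: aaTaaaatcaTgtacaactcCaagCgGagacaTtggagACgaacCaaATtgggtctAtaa
Rps6: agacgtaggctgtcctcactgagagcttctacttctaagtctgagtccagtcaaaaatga
Rps6-ps4: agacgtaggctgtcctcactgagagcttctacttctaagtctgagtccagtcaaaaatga
Within these windows Rpl10l differed from Rpl10 at 7 bases and Rpl39l from Rpl39 at 12, whereas Rps6 and Rps6-ps4 differed at 0. A read from a stretch shared by 2 rows cannot be assigned to either by its sequence alone. The study's methods state that the reads counted were uniquely mapped ones.

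The TOP feature lies at the transcript start. Windows of 30 bases centred on the RefSeq start (GRCm38.p6) are shown for 5 members whose levels are described below. Capitals mark a C followed by at least 4 pyrimidines, where the run begins within 10 bases of that start. Rps21 and Rpl34 each have another RefSeq start, which is not shown. At that of Rps21 no such run was found. The other Rpl34 window opens with an unbroken pyrimidine run that spans the start. That run begins more than 10 bases before the start and so was not marked. No run beginning within 10 bases was found at the starts of Rpl4 and Rpl10, although the Rpl4 window holds one that begins further upstream.
Rps6 (chr4:86857353-86857382, minus strand): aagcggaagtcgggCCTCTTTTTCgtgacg
Rps18 (chr17:33955651-33955680, minus strand): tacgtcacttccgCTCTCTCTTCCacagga
Rps21 (chr2:180257364-180257393, plus strand): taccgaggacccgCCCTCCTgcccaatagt
Rpl34 (chr3:130730384-130730413, minus strand): cgccttccctgacgtaCTTCCTgtccggcg
Rpl7l1 (chr17:46782642-46782671, minus strand): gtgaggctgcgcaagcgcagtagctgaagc
RefSeq promoters were found for 65 of the 90 members. A run of C and 4 pyrimidines starting exactly at the annotated start was present in 14 of 65 (21.5%), against 3.01% of all 27025 genes with a promoter in the table. Allowing the run to begin within 10 bases of the start gave 40 of 65 (61.5%) against 34.4%. CGGAAG, the core bound by ETS factors, was found on either strand of the 300-base promoter in 43 of 65 members (66.2%) against 18.8% of all genes. TATAAA was found in 12.3% against 15.7%, and CACGTG, an E-box bound by MYC, in 9.23% against 8.09%. These matches describe letters in the window and are not evidence of a bound site.

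Ribosomal protein rows took up a larger part of each mESC library than of each MEF library. The members held 4.07%, 4.02%, 3.87% and 4.52% of all counts in the MEF libraries and 5.44%, 5.42% and 5.36% in the mESC libraries. All mESC libraries lay above all MEF libraries, and the mESC values were the more tightly grouped. The means were 4.12% ± 0.281 (SD, n = 4) and 5.41% ± 0.0424 (SD, n = 3), a difference of 1.29 percentage points or a ratio of 1.31. Large-subunit members went from 2.18% ± 0.139 to 2.88% ± 0.0535 and small-subunit members from 1.94% ± 0.151 to 2.53% ± 0.0869, again with no overlap. Rows named -ps, which are not members, moved the same way, from 3.66% to 4.58%. Rows of the mitochondrial ribosomal proteins, which belong to a separate ribosome, went from 0.564% ± 0.0365 to 0.821% ± 0.0389.

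These shares depend on what else a library holds, because all counts of a library sum to its total. The 100 largest other genes held 23.2% of the counts in MEFs and 18.0% in mESCs, and with those genes left out of the total the members' share was 5.37% in MEFs and 6.59% in mESCs. On library totals alone, the median log2 fold change of all 16580 tested genes was 0.32 and that of the members was 0.29. TMM scaling lowered the median of all genes by 0.28, to 0.04, and that of the members became 0.01. On both scales the members' median was close to that of all genes and slightly below it, while their share of the raw counts was larger in mESCs. Bulk libraries do not tell fewer cells of a type from less RNA per cell.

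**Figure D1:**
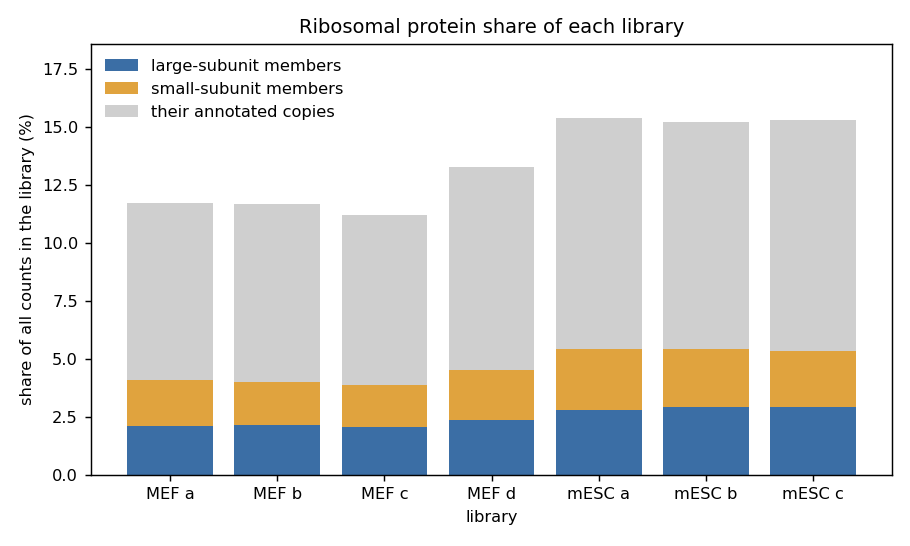
Share of all counts (%) in each of the 7 libraries (MEF a to d, mESC a to c). Bars stack large-subunit members, small-subunit members and their annotated pseudogene or retrotransposed copies; members together held 3.87% to 4.52% in MEFs and 5.36% to 5.44% in mESCs.

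At the level of single genes, few members differed between the cell types. Of the 90 members 88 passed the filter on low counts. In the edgeR quasi-likelihood test (Benjamini-Hochberg adjusted p under 0.05) 10 were higher and 4 lower in mESCs, which is 15.9% of the members against 47.9% of all genes tested. In the higher direction the members reached 11.4% and the background 22.8%, and in the lower direction 4.55% and 25.0%. Values of the 2 cell types did not overlap for 18 members (20.5%), against 52.1% of all genes tested. Between the quartiles the members' log2 fold changes ran from -0.17 to 0.19, and that of all genes from -0.85 to 0.78. In 55 members (62.5%) the change was under 0.25 in size, compared with 18.8% of all genes. The median standard error of a member was 0.16. Other call rules gave like counts, with 11 higher and 4 lower in DESeq2 (37.6% of genes called), with robust dispersion (47.8%), with DESeq2's size factors (48.1%) and with TMM factors from the other genes only (47.9%), and 10 and 4 with a stricter filter (51.4%). A filter of 1 count gave 11 and 7 (23.8%), scaling to the members' own sum 9 and 8 (47.2%), and a test against a 1.5-fold change 3 and 2 (34.4%). The 74 members that did not pass the test had log2 fold changes between -1.06 (Rpl30) and 0.43 (Rps4x). Without library MEF a the change of Rpl30 was -0.053, and that of Rps4x was 1.52 without library MEF d and -1.35 without library mESC a. Subunits had similar medians, -0.03 over 53 tested large-subunit members (5 higher, 3 lower) and 0.04 over 35 small-subunit members (5 higher, 1 lower).

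The 2 members that were not tested were Rps12l1, with 0 counts in every library, and Rpl3l, a paralog of Rpl3 known from muscle. Rpl3l had 1, 2, 1 and 0 counts in MEFs and 5, 22 and 18 in mESCs. Pooled over libraries, this was a ratio of 16.3 on library totals, with a 95% counting interval from 5.96 to 62.6 that covers counting error only.

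The acidic stalk, which recruits translation factors to the large subunit, was among the groups in which no member passed the test. Rplp0, its base, was at 170, 198, 186 and 195 CPM in MEFs and at 187, 172 and 182 CPM in mESCs (log2 fold change -0.06, SE 0.13, edgeR adjusted p = 0.75). Rplp1 was at 1662 ± 201 CPM (SD, n = 4) and 1601 ± 148 CPM (SD, n = 3), with a change of -0.05. Rplp2 was at 203, 423, 141 and 137 CPM in MEFs and at 203, 165 and 215 CPM in mESCs. Library MEF b alone was high, and without it the log2 fold change of Rplp2 turned from -0.22 to 0.27.

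Among the members with most counts, Rpl4 and Rpl22 rose, and Rps26 and Rps3 did not pass the test. Rps26 was at 1815 ± 196 and 1985 ± 49.1 CPM, and Rps3, which lines the mRNA entry, at 1741 ± 99.7 and 1895 ± 97.4 CPM. On library totals without TMM, Rps26 and Rps3 both passed the test (log2 fold changes 0.41 and 0.40), as did 28 members in all, at a background of 31.2% of genes in that direction, while 3 members were lower (51.4% of genes in either direction).

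Rpl10l had the largest change. Its counts were 2, 1, 3 and 0 in MEFs, at or under the floor of 3 counts per library, and 120, 140 and 162 in mESCs. All mESC libraries were far above all MEF libraries. The pooled ratio was 102 on library totals, with a 95% counting interval from 46.6 to 280, and the fitted log2 fold change was 6.29 (SE 0.54, edgeR adjusted p = 5.34e-06). In mESCs it reached 13.0, 15.9 and 19.1 CPM.

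Rps4l, an intronless relative of Rps4x on chromosome 6 (chr6:148354656-148355598, plus strand) that GENCODE lists as a transcribed processed pseudogene, was at 67.5, 60.9, 73.5 and 105 CPM in MEFs. In mESCs it was at 302, 287 and 306 CPM. The groups did not overlap, and the log2 fold change was 1.96 (SE 0.19, edgeR adjusted p = 1.17e-05). It held 99.6% of the counts of its own group of related copies.

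Rpl7l1, a relative of Rpl7 found in nucleolar precursors of the large subunit, rose from 80.0, 81.1, 102 and 88.3 CPM to 158, 145 and 134 CPM (log2 fold change 0.73, SE 0.15, edgeR adjusted p = 0.0021). Rpl4, which reaches into the peptide exit tunnel, rose from 3159, 3643, 3622 and 3874 CPM to 4814, 5544 and 5472 CPM (log2 fold change 0.56, SE 0.10, edgeR adjusted p = 0.0010). Both genes were without overlap between cell types, and both held most counts of their families (99.1% and 96.9%). Their exons bear no protein-coding overlap on the other strand in GENCODE M21. The snoRNA genes Gm22455 (59 bases) and Snord16a (99 bases) overlap the Rpl4 exons on the same strand.

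Rps21, a protein of the small subunit, was at 1427, 1431, 1314 and 1521 CPM in MEFs and at 1864, 2024 and 2278 CPM in mESCs (log2 fold change 0.53, SE 0.11, edgeR adjusted p = 0.0021). Rpl22, a large-subunit protein that also binds RNA outside the ribosome, was at 1542, 1545, 1729 and 1845 CPM and at 2079, 2280 and 2558 CPM (log2 fold change 0.47, SE 0.11, edgeR adjusted p = 0.0061). Rps28, a small-subunit protein near the mRNA exit, was at 560, 511, 583 and 757 CPM and at 929, 936 and 812 CPM (log2 fold change 0.57, SE 0.15, edgeR adjusted p = 0.0085). For each of these 3 genes the lowest mESC library was above the highest MEF library. Rps28 shares 88 exonic bases with Kank3 on the opposite strand, and the strand setting of the counting is not given in the sources used here.

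The remaining 3 higher members did not hold up in the same way. Rpl23a was at 42.7, 54.8, 57.3 and 64.7 CPM in MEFs and at 73.4, 95.8 and 77.9 CPM in mESCs (log2 fold change 0.59, edgeR adjusted p = 0.021), but without library mESC b the adjusted p was 0.096. It also overlaps Tlcd1 on the opposite strand over 506 exonic bases. Rps6, the substrate of the S6 kinases, was at 24.4, 20.5, 21.3 and 18.8 CPM in MEFs and at 95.6, 150 and 15.2 CPM in mESCs (log2 fold change 2.03, edgeR adjusted p = 0.0092). Library mESC c lay below all MEF libraries, and without library mESC b the log2 fold change was 1.38 with an adjusted p of 0.056. Rps18 was at 170, 99.9, 103 and 73.0 CPM in MEFs and at 361, 166 and 145 CPM in mESCs. Its call (log2 fold change 1.01, edgeR adjusted p = 0.032) was lost without library mESC a (0.48, adjusted p = 0.23) and without each of the libraries MEF b, MEF c and MEF d (adjusted p from 0.068 to 0.076). Rps18 overlaps Vps52 on the opposite strand over 156 exonic bases.

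Among the 4 lower members, Rpl39l had the largest decrease. It was at 48.7, 44.9, 40.5 and 51.8 CPM in MEFs and at 10.4, 32.8 and 12.2 CPM in mESCs (log2 fold change -1.33, SE 0.36, edgeR adjusted p = 0.011). The mESC libraries differed by a factor of 3.16 among themselves, yet all were below the MEFs. Rpl10l and Rpl39l, both autosomal partners of an X-linked gene, thus differed in opposite directions.

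Rpl34, a large-subunit protein, was at 492, 410, 487 and 280 CPM in MEFs and at 192, 273 and 137 CPM in mESCs (log2 fold change -1.06, SE 0.26, edgeR adjusted p = 0.0060). The highest mESC library lay just under the lowest MEF library. Rpl10, which helps to form the peptidyl transferase region, was at 374, 310, 523 and 293 CPM in MEFs and at 227, 217 and 210 CPM in mESCs (log2 fold change -0.78, SE 0.20, edgeR adjusted p = 0.0075). A snoRNA gene, Snora70, overlaps the Rpl10 exons over 137 bases on the same strand. Rps12 was at 120, 121, 110 and 87.8 CPM and at 72.7, 90.8 and 56.5 CPM (log2 fold change -0.58, edgeR adjusted p = 0.031), with overlap between the groups. Its call was lost without any one of the libraries MEF a, MEF b, mESC a and mESC c (adjusted p from 0.064 to 0.12).

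**Figure D2:**
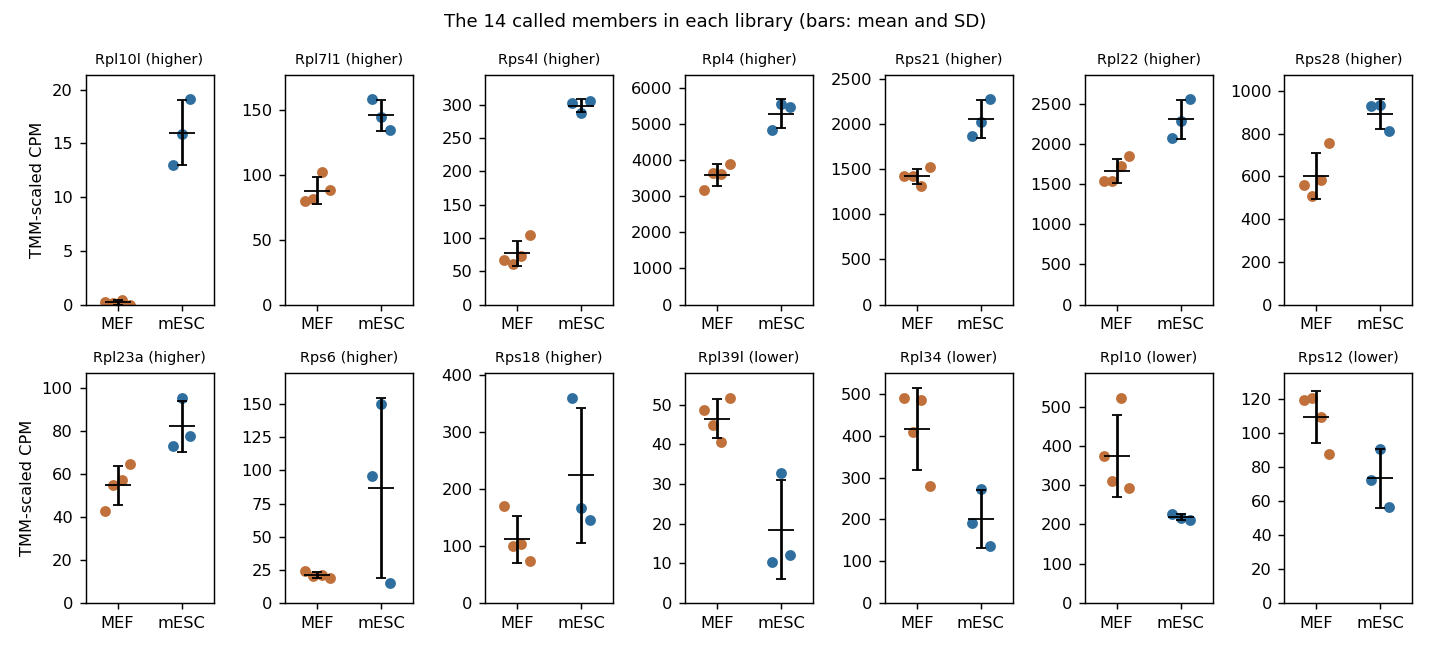
TMM-scaled CPM (each y axis starting at 0) of the 14 members that passed the test, in 4 MEF and 3 mESC libraries, with bars for the mean and SD. Points of the cell types are apart for most genes, while those of Rps6, Rps18 and Rps12 overlap.

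Pairs of related genes were compared within a library, where scaling has no effect. Each gene was taken as its own row, without the copies described below. The main row held 11.9% of the counts of its family (the row and its copies) for Rpl7, 4.75% for Rps27, 38.1% for Rpl10 and 95.9% for Rpl39. Percentages of a pair are therefore those of rows and not of families. The log2 ratio of the second gene to the main gene (counts plus 1) was tested in 7 pairs whose genes both passed the filter, with a two-sided exact permutation test over 35 splits. The smallest p this design allows is 0.0286, and after adjustment over the 7 pairs no pair passed 0.05. Rpl10l made up 0.0513%, 0.0387%, 0.0873% and 0% of the pair's counts in MEFs and 5.43%, 6.82% and 8.32% in mESCs, with a log2 ratio 6.54 higher in mESCs (exact permutation p = 0.0286, adjusted p = 0.067). Rpl10l was at or under the floor of 3 counts in every MEF library. Its MEF percentages and the size of the ratio difference therefore rest on floor counts and on the 1 count added. Rpl7l1 went from 39.2% ± 2.66 (SD, n = 4) to 56.7% ± 0.515 (SD, n = 3) of its pair, a difference of 1.02 in log2 ratio with the same exact p. Rpl39l went from 3.01% ± 0.262 to 1.25% ± 0.780, a difference of -1.46, also with that p.

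The other 4 pairs gave larger p-values. Rpl22l1 was at 16.2, 12.2, 9.60 and 22.4 CPM in MEFs and at 10.3, 11.2 and 11.6 CPM in mESCs (log2 fold change -0.45, edgeR adjusted p = 0.26), and its log2 ratio to Rpl22 was lower in mESCs by -0.85 (exact permutation p = 0.0571, adjusted p = 0.10). Rps4l against Rps4x differed by 1.81 (exact permutation p = 0.20, adjusted p = 0.28), while Rps4x itself ranged from 64.9 to 491 CPM in MEFs and from 70.4 to 613 CPM in mESCs. Rpl36al against Rpl36a differed by -0.30 (exact permutation p = 0.69, adjusted p = 0.80) and Rps27l against Rps27 by -0.04 (exact permutation p = 0.91, adjusted p = 0.91). Rps27l, a p53-responsive relative of Rps27, was at 852 ± 142 CPM in MEFs and 873 ± 67.8 CPM in mESCs. The Rps27 row was at 66.7 ± 9.83 and 71.6 ± 16.8 CPM, and Rps27 summed with its copies at 1387 ± 281 and 1500 ± 197 CPM. Of the main genes, Rpl3 was at 80.4 ± 9.84 and 104 ± 10.1 CPM (log2 fold change 0.37, edgeR adjusted p = 0.069), and passed the test without library MEF d (adjusted p = 0.038). Rpl7 changed by -0.29 and Rpl39 by -0.07, and neither passed.

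**Figure D3:**
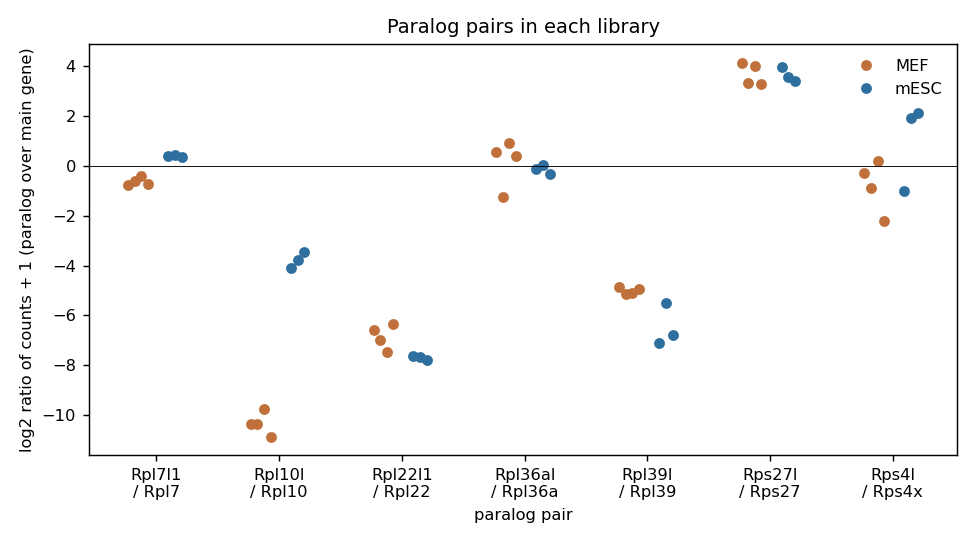
Log2 ratio of counts plus 1 of the second gene over the main gene for 7 pairs, with a point per library (4 MEF, 3 mESC). Ratios of Rpl10l, Rpl7l1, Rpl39l and Rpl22l1 do not overlap between the cell types, with mean differences of 6.54, 1.02, -1.46 and -0.85. Those of Rps4l, Rps27l and Rpl36al do.

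Copies of the members carried more counts than the members. Stretches of 50 bases were compared between the members and all GENCODE M21 transcripts, and pseudogenes or retrotransposed genes sharing at least 10% of their stretches with a member were taken as its copies. There were 608 such rows, attached to 83 members, and they held 5036394 counts against 2695573 in the members, or 1.87 times as many. In 55 members the main row held less than 50% of the counts of its family. Rpl31-ps8 held 292983 counts and Rpl31 23934. Rps27rt (chr9:114982366-114982739, minus strand), a retrotransposed copy identical to Rps27 over 255 coding bases, held 66624 and Rps27 3966. Rps6-ps4, with the sequence printed above, held 46097 counts and Rps6 3017. The levels in this report are those of the rows as counted, and how the reads of 1 mRNA were divided between a member and its copies was not tested.

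Copies and members moved together as a share of the libraries. With copies added, the share was 11.7%, 11.7%, 11.2% and 13.3% in MEFs and 15.4%, 15.2% and 15.3% in mESCs, a ratio of 1.28. Of 447 copy rows tested, 23 were higher (5.15%) and 8 lower (1.79%) in mESCs, against 22.8% and 25.0% of all genes tested, with a median log2 fold change of 0.01. Gm9794, a copy of Rpl23 and the second largest, was higher by 0.44, and Gm3379, a copy of Rpl10, lower by -0.62, in the direction of Rpl10 itself.

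Each member was then summed with its copies before the fit, an analysis added after the data had been seen. Of 88 families 10 were higher and 6 lower (18.2%, against 49.2% of the genes tested in that fit), with a median of 0.04. The changes of 7 higher members (Rpl10l, Rps4l, Rpl7l1, Rpl4, Rps21, Rps28 and Rpl22) and 3 lower members (Rpl39l, Rpl34 and Rpl10) passed in both analyses with the same sign. Except for Rps28, Rpl34 and Rpl10, the main row held 89.9% to 100% of its family's counts. Both analyses then used nearly the same counts and could hardly differ. For Rps28, Rpl34 and Rpl10 the main row held 51.3%, 21.6% and 38.1%. Rpl34 became -0.65 (SE 0.11) and Rpl10 -0.67 (SE 0.11), with the families at 1784 ± 143 and 1139 ± 66.5 CPM and at 959 ± 73.5 and 603 ± 18.5 CPM. Rps6 fell to 0.21, Rps18 to 0.23 and Rpl23a to 0.21, and Rps12 turned from -0.58 to 0.21, all without passing (edgeR adjusted p of 0.21, 0.063, 0.14 and 0.098). Rpl23 (0.40), Rps14 (0.28) and Rpl13a (0.27) passed as higher and Rpl29 (-0.46), Rpl15 (-0.32) and Rpl22l1 (-0.34, edgeR adjusted p = 0.0495) as lower in the sum only. Among the 17 tested members that held at least 90% of their family, 6 passed the test alone, and among the other 71 it was 8, against 47.9% of all genes tested in that fit. Members could not count as copies of each other, so the 17 are not all free of shared sequence. They include the pseudogene rows Rpl6l and Rps3a3, which share 76.4% and 65.1% of their stretches with other genes.

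**Figure D4:**
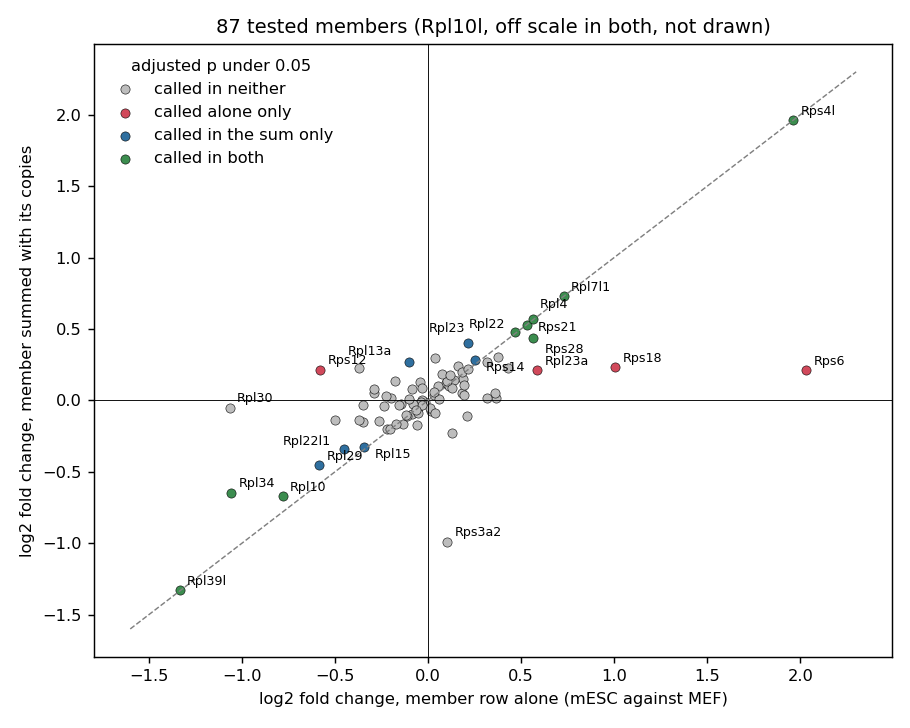
Log2 fold change of mESCs against MEFs for 87 tested members, counted alone (x axis) and summed with their copies (y axis), with the line of equality dashed. Rps4l, Rpl7l1 and Rpl39l, whose rows held at least 99.1% of the counts of their families, stay near the line. Rpl10 is also near it, whereas Rps6 goes from 2.03 to 0.21 and Rps12 from -0.58 to 0.21.

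Several members were high in single libraries of either cell type. Of 87 members with a mean of at least 10 CPM in MEFs, 8 had a highest MEF library over 3 times the lowest (9.20%, against 4.33% of 9012 genes at that level). In mESCs it was 5 of 88 (5.68% against 2.97%). Rps3a1 was at 903, 150, 108 and 118 CPM in MEFs and at 116, 80.1 and 625 CPM in mESCs. Rpl15, whose mRNA encodes a large-subunit protein needed early in assembly, was at 61.0, 62.6, 560 and 54.4 CPM and at 357, 43.6 and 35.2 CPM. Rps4x was at 83.3, 114, 64.9 and 491 CPM and at 613, 77.4 and 70.4 CPM. In these genes 1 MEF and 1 mESC library were high. Among the remaining libraries the cell types overlapped for Rps3a1 and Rps4x, while for Rpl15 the mESC values were below all MEF values.

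In several of these members the sum with copies was more even between libraries. The Rpl15 family ran from 1468 to 1666 CPM in MEFs and from 1224 to 1341 CPM in mESCs. The Rps27a family ran from 1836 to 1983 CPM in MEFs, where Rps27a itself was at 271, 82.3, 78.7 and 75.7 CPM. In mESCs the Rps27a family ran from 1590 to 2093 CPM and the row from 78.8 to 169 CPM. Rpl30 had 131 CPM in the largest MEF library and 23.4 to 27.5 CPM in the other three, while its family ran from 1623 to 1844 CPM. The family of Rps6 stayed within 1279 and 1532 CPM in mESCs. After summing, families with a spread over 3 numbered 1 of 87 in MEFs and 1 of 88 in mESCs, the latter being Rpl39l, which has no copy. The MEF family was that of Rps3a2, at 169, 754, 185 and 849.6 CPM, although the Rps3a2 row itself ran from 36.6 to 71.7 CPM. Rps3a2 is itself annotated as a pseudogene, and its 2 copies held 17826 counts against 3249 in the row. Each copy was given only to the member with which it shared most stretches, so Rps3a1, Rps3a2 and Rps3a3 were kept as separate families. The Rplp2 family still ran from 143 to 428 CPM in MEFs. The cause of the single high libraries was not tested.

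**Figure D5:**
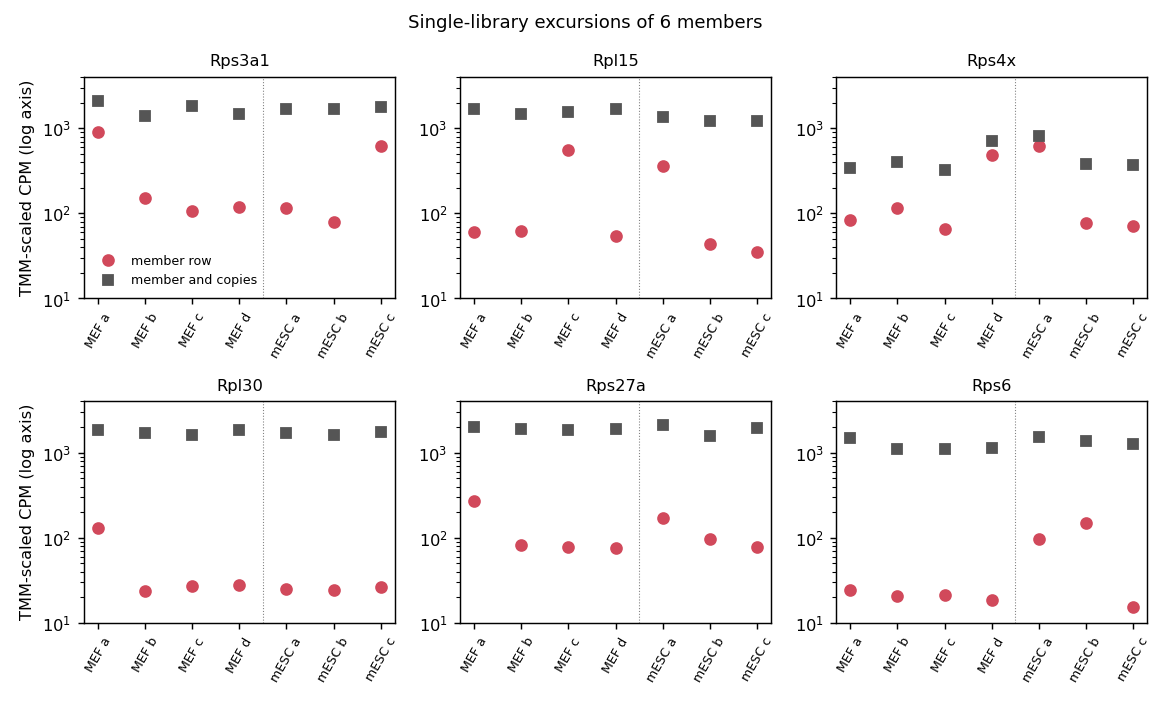
TMM-scaled CPM on a log axis for 6 members in each library, as the member row alone and as the member with its copies. Single libraries stand out in the member rows, for example Rps3a1 at 903 and 625 CPM. The summed Rpl15, Rpl30 and Rps27a families vary by at most a factor of 1.32 within a cell type, and the Rpl15 family is lower in mESCs.

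Members were also grouped by role. Of 18 genes mutated in Diamond-Blackfan anaemia, an inherited failure of red cell production, only Rps28 was higher and 0 were lower in the edgeR test (median log2 fold change 0.12), where 22.8% of all genes tested were higher and 25.0% lower. Of 9 proteins around the exit of the peptide tunnel, Rpl22 and Rpl23a were higher and 0 lower (median 0.10). Of 14 proteins of the 40S head, Rps18 and Rps28 were higher and Rps12 lower (median 0.02), beside the same background. The groups share members, among them Rps28, and their medians stand beside 0.04 for all genes.

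Genes that are not members but are related to these proteins or their mRNAs were described for comparison. Among all genes tested, 22.8% were higher and 25.0% lower, and the counts of each list stand beside these shares. Of 15 other TOP mRNAs, 3 were higher and 3 lower (median -0.18). Npm1, a nucleolar chaperone, rose from 998 ± 157 to 1860 ± 171 CPM and Eif4b, an initiation factor, had mean levels of 214 CPM in MEFs and 321 CPM in mESCs and was also higher. Tpt1 fell from 233 ± 80.2 to 136 ± 10.7 CPM and Eif3f, a subunit of initiation factor 3, from 310 ± 36.0 to 205 ± 12.8 CPM. Of 15 genes of the mTORC1 and Larp control of TOP mRNAs, 4 were higher and 2 lower. Mtor, the kinase, rose from 14.7 ± 4.89 to 32.9 ± 3.06 CPM and Larp1b from 15.9 ± 6.98 to 34.6 ± 6.68 CPM, and Akt1s1, an inhibitor in the complex, fell from 21.5 ± 2.64 to 6.36 ± 0.729 CPM and Rheb, its activator, from 251 ± 57.6 to 130 ± 11.4 CPM. Larp1 itself was at 77.3 and 97.4 CPM (log2 fold change 0.33, edgeR adjusted p = 0.083).

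Of 7 partners of single ribosomal proteins, mostly chaperones, 6 were tested, 4 were higher and 1 lower (median 0.90). Prmt3, a methyltransferase rather than a chaperone, was among the 4 (log2 fold change 0.83). Of all genes tested, 47.9% were called in either direction and 22.8% were higher. Bccip, which serves Rpl23, rose by a log2 fold change of 1.13 (SE 0.26) to 43.9 ± 8.65 CPM and Pdcd2l from 31.6 ± 5.38 to 63.1 ± 3.88 CPM. Heatr3, which imports Rpl5, fell from 16.6 ± 4.36 to 7.34 ± 0.912 CPM, while Rpl5 was at 41.9 to 129 CPM in MEFs, with library MEF d alone high, and at 42.7 to 56.6 CPM in mESCs and did not pass. Free Rpl5 and Rpl11 bind Mdm2, which ties ribosome assembly to p53. Of the 4 genes of that link, Mdm4 (log2 fold change 1.46) and Trp53 (0.61) were higher, Cdkn1a (-1.44) was lower, and Mdm2 changed by 0.29 without passing. Of 83 mitochondrial ribosomal protein rows 77 were tested, with 25 higher and 8 lower (median 0.24), beside 22.8% and 25.0% of all genes tested. Mrpl45 (log2 fold change 1.33) and Mrps31 (1.31) had the largest increases and Mrps6 (-1.09) and Mrpl54 (-0.80) the largest decreases.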

How the data were processed

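The authors made RNA libraries with 3′-biased priming at the poly(A) tail, a sample index and a molecular identifier, demultiplexed and trimmed the reads with Sabre and Cutadapt, aligned them to mm10 with STAR, collapsed the identifiers with Je and counted reads on exons with featureCounts. They deposited whole-number counts per gene symbol without normalization. The STAR version differs between the submitters' processing notes (2.4.2a) and the study's methods, and the annotation release and the strand setting are not given in the sources used here. Column names give the cell type but no sample, so libraries could not be tied to single samples, and 0 columns of sample values were left unused. Library totals ran from 6528643 to 11441278 counts, 3 counts were taken as the floor, and intervals cover counting error only.

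The 90 members and all gene lists were chosen with earlier results of these data known. The 4 MEF and 3 mESC libraries were compared with edgeR 4.0.16 (limma 3.58.1, R 4.3.3) by filterByExpr, TMM and the quasi-likelihood test over all genes, with Benjamini-Hochberg adjustment and a threshold of 0.05. This test was checked on simulated data. Genes were named by rule, which took the acidic stalk, paralog pairs, the 8 largest and 8 smallest fold changes, the 5 members of most counts and members failing the filter, and some results under this rule are not reported here. Copies were found by shared 50-base stretches with GENCODE M21 transcripts. Promoter sequences came from RefSeq. Alternatives were other scalings, filters and tests, DESeq2 1.42.0, leaving out each library, and sums with copies, of which the sums, robust dispersion and protein-coding rows only were added after the data were seen.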

Additional observations from a re-analysis of the deposited data

Results flagged for a closer look

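In 14 of 89 members with any count, 1 MEF library lay apart from the other three by more than Dixon's limit for 4 values. The nominal rate of this limit is about 1 in 20 groups, or 4.45 of 89. The share of all genes past the limit was not computed, so the count is not a result about the members. Library MEF a was high for Rps3a1 (903 CPM, others 108 to 150), Rps27a (271, others 75.7 to 82.3) and Rpl30 (131, others 23.4 to 27.5). Library MEF b was high for Rpl12 (401, others 184 to 220) and Rpl36a (399.8, others 119 to 152) and low for Rpl35 (107, others 181 to 191). Library MEF c was high for Rpl15 (560.2, others 54.4 to 62.6), Rpl10a (280.5, others 172 to 178) and Rpl27 (167, others 152 to 154) and low for Rps2 (142, others 192 to 201). Library MEF d was high for Rpl11 (457, others 273 to 299), Rpl5 (129, others 41.9 to 50.0001), Rpl13 (1199.9, others 1115 to 1128) and Rps4x (491, others 64.9 to 114). The cause was not tested.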

How the results depend on the processing

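No paired analysis was possible because column numbers could not be matched to numbered samples. Leaving mitochondrial genome counts out of the total changed no share, since no row carried an mt- name. The members counted as higher were 28 on library totals and 3 against a 1.5-fold change, and those counted as lower 8 when scaled to the members' sum, 2 against a 1.5-fold change and 7 with a filter of 1 count. Their median log2 fold change was 0.29 on library totals and -0.11 when scaled to the members' sum. The share difference was 2.21 points with a wider set of rows that took in the -ps rows and 3.35 points with copies. Leaving out each library gave 8 to 12 higher and 3 to 5 lower members, a median from -0.02 to 0.03 and a share difference from 1.2005 to 1.42 points.

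Across 30 named genes, 509 values under an alternative gave 24 with the opposite sign, 23 calls lost and 13 gained. On library totals Rplp0 (0.22), Rplp1 (0.22), Rplp2 (0.072), Rpl36al (0.25) and Rpl39 (0.21) turned positive. With copies, Rpl7 (0.051) and Rps12 (0.21) did. Rps27 (-0.0036) and Rps27l (-0.080) turned negative when scaled to the members' sum, and Rps27l (-0.0026) also with a filter of 1 count. Leaving out libraries moved log2 fold changes across 0 for Rplp1 (-0.12 to 0.012), Rplp2 (-0.41 to 0.27), Rpl36a (-0.078 to 0.66), Rpl36al (-0.12 to 0.023), Rps27 (-0.10 to 0.24), Rps27l (-0.050 to 0.12) and Rps4x (-1.35 to 1.52), and the Rps27l to Rps27 ratio (-0.20 to 0.11). Rpl36a passed the test without library MEF b (0.66, edgeR adjusted p = 0.019). The cause was not tested. No pair ratio could pass the test once a library was left out.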
